A study of Arabidopsis thaliana with 8 samples.

Results

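The first hour at 4 °C was compared with the level before transfer in whole Arabidopsis thaliana plants, on 4 of the 8 Affymetrix ATH1 arrays of a cold time course. The comparison takes in the 2 arrays of plants held for 1 h at 4 °C and the 2 arrays of plants harvested at 0 h, as the array labels name them. All 22746 probe sets that are not array controls were described, including those with no gene in the probe annotation, and 15017 of them were bright enough to be tested. Both groups were Col-0 plants with no transgene or mutation named in the labels. They were 10 days old and had grown at 24 °C on agar plates, in continuous light with a flux of 100 µmol of photons per m2 and s, from seed stratified for 4 days at 4 °C. The 1 h plants were moved to 4 °C and to a dimmer flux near 25 µmol, while the 0 h plants were taken straight from growth conditions. Temperature and light therefore changed together at transfer, and their effects cannot be told apart here. The remaining arrays, 2 at 24 h and 2 at 7 days of the same treatment, were used for the estimate of the spread and for later levels of the probe sets that changed at 1 h.

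Plants sense a drop in temperature through changes in membranes and calcium entry, and protein kinases carry the signal to the nucleus. Transcription factor genes respond early, among them the CBF genes, zinc finger repressors of the ZAT group and WRKY factors. CBF proteins then turn on cold-regulated COR genes, many of whose products protect cells during freezing, so the early transcripts precede the protective ones. Many early transcripts also respond to touch, wounding, light and other stresses.

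Signals are MAS5 intensities on a linear scale, and changes are given as differences of log2(signal + 8) with their standard error from a limma model over all 8 arrays, which understates the change of dim probe sets. A probe set is called changed where the Benjamini-Hochberg adjusted p over all tested probe sets was under 0.05. With 2 arrays per group an exact permutation test cannot give a two-sided p under 0.333, so every p-value comes from the limma model. The labels do not state whether replicate arrays were made from different cultures, so the p-values cover the spread of these samples alone, and that spread may be technical. The 2 arrays of 0 h correlated at r = 0.961 across tested probe sets and the 2 arrays of 1 h at r = 0.972. Between those replicates 2.26% and 1.39% of tested probe sets differed by more than 2-fold. As a check of the whole-plant label, the leaf gene RCA (Rubisco activase) had signals of 3676 to 6145 over the 4 arrays. Of the 3 tested root genes, PYK10 (a beta-glucosidase) had 1734 to 2368. EXPA7 had 19.5 to 41.6, below the array medians of 41.8 to 43.9, and EXPA18 had 28.3 to 60.02, on either side of those medians. The flower gene ROXY1 (a glutaredoxin) had 13.1 to 21.7. In whole-plant RNA, fewer cells of a type and less RNA per cell cannot be told apart.

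After 1 h, 48 probe sets were called changed, and 47 of them were higher. The higher calls made up 0.313% of the tested probe sets and the lower call 0.00666%. Of the 47 that rose, 16 pair with 1 gene and 31 are not listed in the probe annotation used here. The share called was 0.197% of the 8125 tested single-gene probe sets and 0.485% of the 6603 tested unlisted ones, so most of the early response lay in probe sets that could not be named. On every called probe set both 1 h arrays lay on the same side of both 0 h arrays. Such separation was common elsewhere, with 16% of tested probe sets higher and 16.4% lower on both 1 h arrays, so it marks no probe set by itself.

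The called changes were large against the rest of the transcriptome. Their sizes ran from 1.04 to 3.54 log2 units, with a median rise of 1.69. Over all tested probe sets the median change was -0.01, and 95% of the changes lay between -0.49 and 0.69. Changes of at least 2-fold were seen upward in 158 probe sets and downward in 20, and 152 and 18 of these did not overlap between groups. At an unadjusted p under 0.05 there were 485 higher probe sets, 3.23% of those tested, and 200 lower ones, 1.33%. The 0 h signal of the probe sets that rose had a median of 81.2 and ran from 4.57 to 501, against a median of 85.2 for all tested probe sets. The largest rises started lower, with 0 h means of 30.2 for 254120_at, 16.6 for 254075_at and 34.8 for STZ. At 1 h the probe sets that rose had a median of 282 and a highest signal of 1135. Of the 47, 6 lay below the filter percentile on both 0 h arrays, 254075_at among them, so they were tested through other arrays.

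The number of calls depended on single arrays. Without replicate 2 of 0 h 16 calls were made, without replicate 2 of 1 h 18 and without replicate 1 of 0 h 23. Of the 48 calls, 13 were kept with each of the 4 arrays left out in turn, among them STZ, AT3G04640 and AT1G25550, and all 48 kept their sign. Another 16 calls were lost whichever of the 4 arrays was left out, among them 8 of the 16 named genes: TET8 (adjusted p up to 0.343), AT1G19380, AT2G29670, AT2G20670, AT1G25400, AT4G29780, AT3G56880 and AT1G21050. The rises were also unevenly shared by the replicates: 41 of the 47 had a higher signal on replicate 2 of 1 h than on replicate 1, against 52.4% of all tested probe sets.

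**Figure D1:**
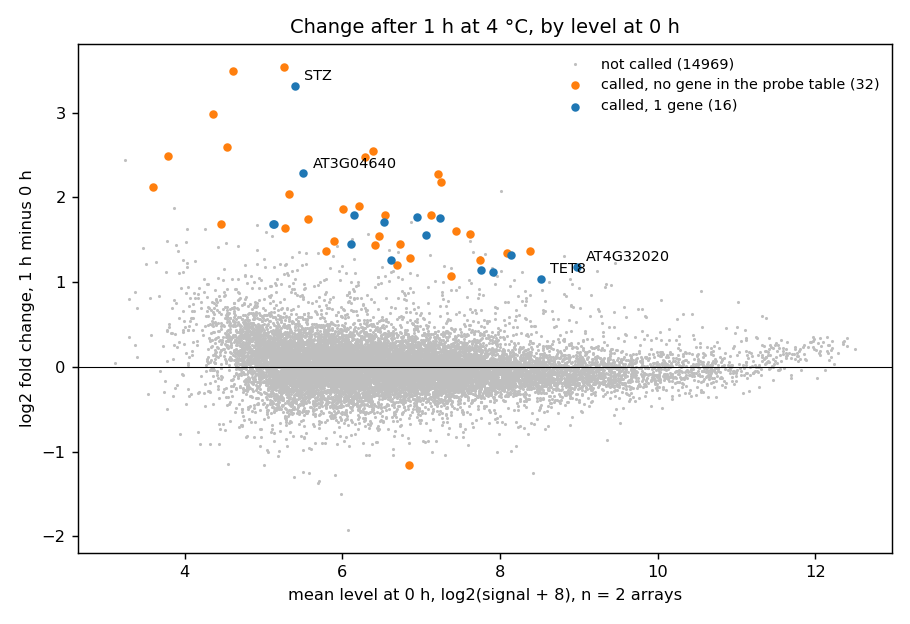
Log2 fold change from 0 h to 1 h of each tested probe set against its mean level at 0 h on the log2(signal + 8) scale, n = 2 arrays per group. Called probe sets with 1 gene (16, blue) and with no gene in the probe annotation (32, orange) lie above 1 with 1 exception below -1, and the other probe sets (grey) centre on 0.

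STZ, also known as ZAT10, encodes a zinc finger repressor of the stress response and was the named gene with the largest rise. Its signal was 41.2 and 28.4 on the 0 h arrays and 375 and 457 on the 1 h arrays. The groups lay far apart compared with the gap between replicates. The mean went from 34.8 ± 9.04 to 416 ± 57.8 (SD, n = 2 arrays each), a log2 change of 3.32 ± 0.22 with a limma adjusted p of 3.18e-05. STZ was the 1 member, of 27 entries on the list of first-wave transcription factors, that has a probe set of its own in the annotation. The CBF genes on that list were not analysed here by name.

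The only other called gene with a symbol was TET8, which encodes a tetraspanin, a membrane protein. Its signals were 345 and 370 at 0 h and 720 and 768 at 1 h. Replicates lay close together in both groups, and the groups did not overlap. TET8 rose by 1.04 ± 0.18 log2 units (adjusted p = 0.0368), the smallest change among the calls. The other 5 tested tetraspanin genes changed by -0.28 to 0.05 and were not called.

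The remaining 14 called genes carry a locus code with no symbol in the tables used here, so their roles are not given. AT3G04640 had signals of 43.3 and 32.3 at 0 h and 191 and 238 at 1 h. It rose by 2.28 ± 0.23 log2 units (adjusted p = 0.000665), the second-largest rise of a single-gene probe set. AT2G20670 had signals of 69.8 and 57.1 at 0 h and 233 and 245 at 1 h. Its rise was 1.79 ± 0.27 (adjusted p = 0.0181), and the 1 h arrays were nearly equal.

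AT1G25550 had signals of 118 and 112 at 0 h and 408 and 414 at 1 h. No other called probe set had a lower standard error: it rose by 1.76 ± 0.17 log2 units with an adjusted p of 0.000665. AT1G32920 had signals of 152 and 134 at 0 h and 480 and 520 at 1 h, a rise of 1.75 ± 0.22 (adjusted p = 0.00439). AT4G27280, an entry on the list of calcium and touch genes, had signals of 102 and 70.0 at 0 h and 280 and 311 at 1 h. It rose by 1.71 ± 0.21 (adjusted p = 0.00443). In these genes too the 1 h arrays stood well above both 0 h arrays.

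The next 4 genes rose by 1.26 to 1.69 on the log2 scale. AT1G25400 had signals of 24.5 and 28.8 at 0 h and 106 and 101 at 1 h, a rise of 1.69 ± 0.27 (adjusted p = 0.0222). AT4G29780 had signals of 27.1 and 27.0 at 0 h and 88.0 and 124 at 1 h, a rise of 1.68 ± 0.26 (adjusted p = 0.0188). Both started near the level at which the filter acts. AT5G50450 had signals of 52.0 and 71.3 at 0 h and 148 and 218 at 1 h, a rise of 1.45 ± 0.23 (adjusted p = 0.0219). AT1G19380 had signals of 106 and 76.9 at 0 h and 206 and 251 at 1 h, a rise of 1.26 ± 0.22 (adjusted p = 0.0392). In the latter pair the replicates were wider apart than in AT1G25550, and the groups still did not overlap.

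The remaining 5 genes had 0 h means of 125 to 501 and rose by 1.12 to 1.56. AT1G76600 had signals of 124 and 126 at 0 h and 352 and 420 at 1 h, a rise of 1.56 ± 0.21 (adjusted p = 0.00901). AT3G56880 had signals of 251 and 296 at 0 h and 625 and 771 at 1 h, a rise of 1.32 ± 0.21 (adjusted p = 0.0219). AT4G32020 was the brightest called gene. Its signals were 426 and 576 at 0 h and 1121 and 1149 at 1 h, a rise of 1.18 ± 0.19 (adjusted p = 0.0234). AT1G21050 had signals of 210 and 208 at 0 h and 496 and 446 at 1 h, a rise of 1.14 ± 0.18 (adjusted p = 0.0222). Among the named genes it was the clearest case in which replicate 1 of 1 h stood above replicate 2. AT2G29670 had signals of 223 and 243 at 0 h and 479 and 553 at 1 h, a rise of 1.12 ± 0.18 (adjusted p = 0.0234). For none of the 16 genes was there a second tested probe set.

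**Figure D2:**
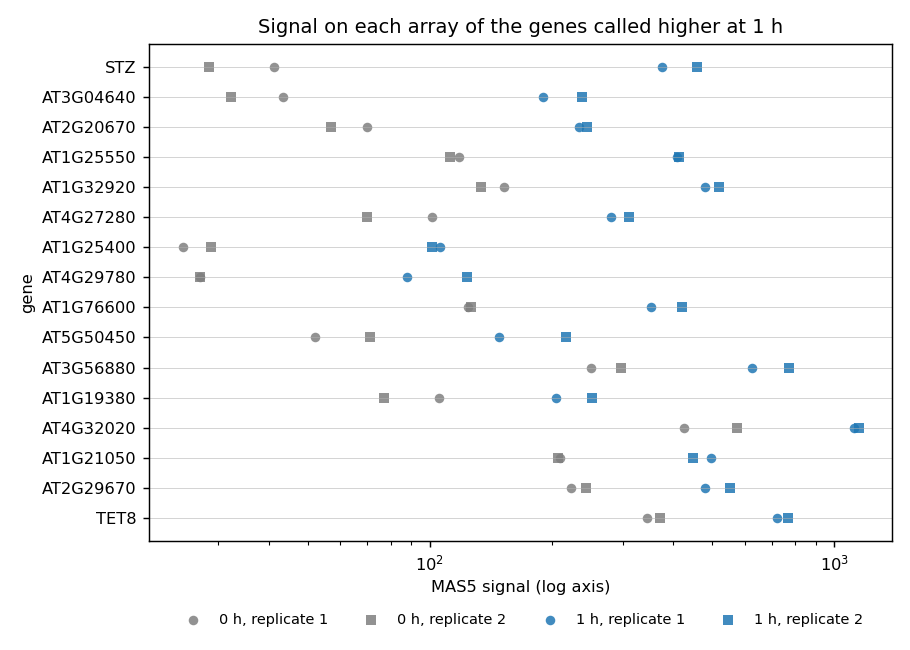
MAS5 signal on a log axis of the 16 genes called higher at 1 h, on each of the 0 h arrays (grey) and 1 h arrays (blue), with circles for replicate 1 and squares for replicate 2. In every gene both 1 h points lie to the right of both 0 h points, from STZ at the top with the largest rise to TET8 at the bottom with the smallest.

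Among the 31 unlisted probe sets that rose, the median change was 1.74, against 1.62 for the 16 named genes. The largest rise of all was that of probe set 254120_at, with signals of 30.4 and 29.9 at 0 h and 395 and 479 at 1 h. It rose by 3.54 ± 0.20 log2 units (adjusted p = 1.22e-05). Probe set 254075_at had signals of 20.0 and 13.3 at 0 h and 194 and 364 at 1 h, a rise of 3.49 ± 0.28 (adjusted p = 0.000188). It lay below the filter percentile on both 0 h arrays and was tested through the 1 h and later arrays, where it was higher. Its p thus draws in part on values that admitted it. Its 1 h arrays differed from each other more than those of 254120_at.

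A single probe set fell. The unlisted 249752_at had signals of 97.6 and 117 at 0 h and 49.6 and 37.6 at 1 h. It fell by 1.16 ± 0.20 log2 units (adjusted p = 0.0350). As with 8 of the named rises, this call was lost when any of the 4 arrays was left out, with adjusted p up to 0.379.

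No named gene was called lower. Of the 10 named genes that were lower at 1 h with the lowest unadjusted p, the changes were -1.25 to -0.68 and the adjusted p-values 0.166 to 0.351. AT1G01640 had signals of 69.3 and 77.1 at 0 h and 33.5 and 29.7 at 1 h, a difference of -1.04 (adjusted p = 0.166). AT3G02320 had signals of 27.5 and 21.2 at 0 h and 7.68 and 5.21 at 1 h, a difference of -1.16 (adjusted p = 0.176). AT4G15390 had signals of 435 and 256 at 0 h and 175 and 106 at 1 h, a difference of -1.25 (adjusted p = 0.262). The 10 also include AT3G14200, AT1G54890, AT2G39960, AT1G14200, AT5G62340, AT1G72730 and AT1G66080. Both 1 h arrays lay below both 0 h arrays in all of the 10, against 16.4% of all tested probe sets. The 10 were picked by a low p, which favours such separation, so the count is a description only.

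Several genes lay just outside the threshold. The nearest were the chloroplast gene ndhA and AT5G11070, both with an adjusted p of 0.0501. AT5G11070 had signals of 249 and 214 at 0 h and 490 and 571 at 1 h, a difference of 1.17. AT5G52750 differed by 1.22 (adjusted p = 0.0635), AT1G24530 by 1.02 (adjusted p = 0.0661) and the chloroplast gene ndhH by 1.35 (adjusted p = 0.0668). The highest adjusted p among the calls was 0.0479, so the boundary runs through a dense run of similar changes.

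The later arrays show how long the early rises lasted. Of the 47 probe sets that rose at 1 h, 46 had a lower mean at 24 h than at 1 h, and 34 were called lower, against 14.7% of all tested probe sets. None was called higher at 24 h, against 11.3% of all tested. At 7 days 40 were called lower than at 1 h, against 11.9% of all tested, and none higher, against 9.86%. These contrasts share the 1 h arrays on which the probe sets were selected, so the counts are a description. Without 1 array the counts ran from 29 to 35 at 24 h and from 34 to 41 at 7 days.

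In the median the named genes had returned nearly to the 0 h level. Their median log2 change against 0 h was 1.62 at 1 h, 0.11 at 24 h and 0.19 at 7 days. The unlisted probe sets had medians of 1.74, 0.50 and 0.32. These medians cover changes in both directions. At 24 h 3 of the 16 named genes were called higher than at 0 h and 3 lower, and of the 31 unlisted probe sets 13 higher and 7 lower. At 7 days 3 named genes and 9 unlisted probe sets were called higher than at 0 h, and 0 and 1 lower. Of the 16 named genes, 7 had a mean below 0 h at 24 h, and 14 were called lower at 24 h than at 1 h. AT2G20670 had a mean signal of 26.9 ± 13.2 (SD, n = 2 arrays) at 24 h, with both arrays under its 0 h signals, a difference of -1.08 against 0 h (adjusted p = 0.0120). TET8 likewise had 232 and 188 at 24 h and was called lower than at 0 h (-0.75, adjusted p = 0.00989), and at 7 days it had 401 and 450. AT1G76600, with signals of 69.2 and 86.4 at 24 h, was the third gene called lower than at 0 h (-0.64, adjusted p = 0.0442).

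STZ stayed above its starting level while falling from its 1 h level. Its signals were 141 and 126 at 24 h and 110 and 88.1 at 7 days. The change against 0 h was 1.74 at 24 h (adjusted p = 0.000188) and 1.33 at 7 days (adjusted p = 0.00165). AT4G32020 did not fall detectably between 1 h and 24 h: its mean was 1135 ± 20.1 at 1 h and 1010 ± 4.35 at 24 h (SD, n = 2 arrays each), a difference of -0.16 (adjusted p = 0.576). AT5G50450 also had no call between 24 h and 1 h (-0.61, adjusted p = 0.0681), with signals of 116 and 114 at 24 h, above its 0 h level (0.83, adjusted p = 0.0181). The unlisted 254075_at kept signals of 177 and 183 at 24 h, a difference of -0.55 from 1 h (adjusted p = 0.175).

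The only probe set that fell at 1 h went the other way. Probe set 249752_at had signals of 162 and 192 at 24 h and 203 and 190 at 7 days. It was higher than at 0 h at both times, by 0.68 (adjusted p = 0.0260) and 0.83 (adjusted p = 0.0135).

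**Figure D3:**
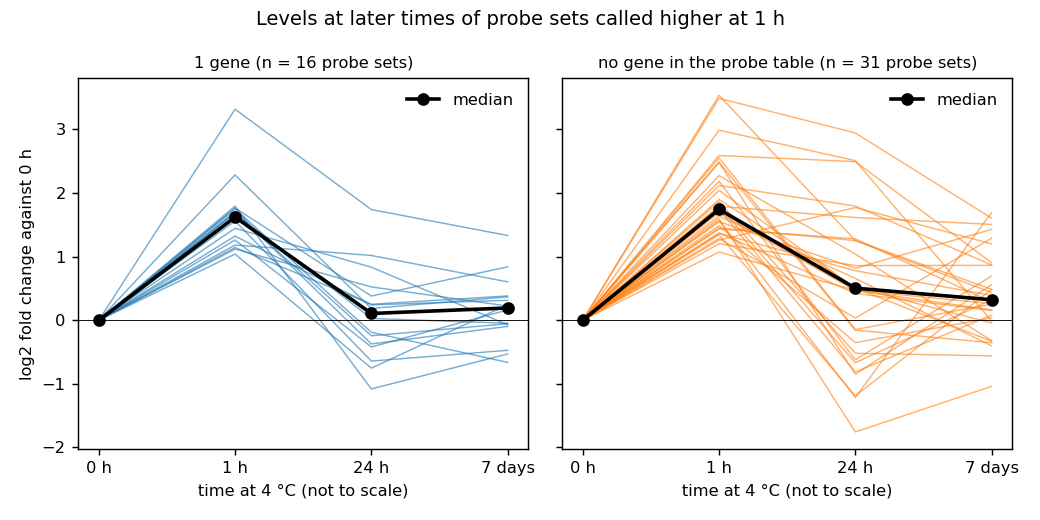
Log2 fold change against 0 h at 1 h, 24 h and 7 days for the 47 probe sets called higher at 1 h, with those of 1 gene on the left (n = 16) and those with no gene in the annotation on the right (n = 31). Thin lines are probe sets, the thick black line is their median, which falls from 1.62 to 0.11 on the left and from 1.74 to 0.50 on the right between 1 h and 24 h.

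Lists of genes with known roles in cold, light, hormone and stress responses were read next. They hold 326 entries in 19 lists, of which 58 have a probe set of their own and 52 were tested, so most lists are seen through a few members. Among those of the 19 lists without a called member, WRKY factors of the stress response came nearest to a call. WRKY53 had signals of 25.9 and 19.1 at 0 h and 56.6 and 68.6 at 1 h, a difference of 1.21 (95% interval 0.67 to 1.76, adjusted p = 0.0875). WRKY22 had 33.5 and 32.7 at 0 h and 80.2 and 108 at 1 h, a difference between 0.71 and 1.89 at 95% (adjusted p = 0.0880). WRKY6 had 32.3 and 35.3 at 0 h and 76.3 and 66.6 at 1 h, a difference of 0.93 (adjusted p = 0.176). None of the 3 was called, and the list median was 1.21. All 3 were higher with an unadjusted p under 0.05, against 3.23% of all tested probe sets, and were higher on both 1 h arrays, against 16%. WRKY53 lay below the filter percentile on both arrays of 0 h and of 24 h. It was tested through the 1 h and 7 day arrays, where it was higher, so its place in these counts is partly set by the filter.

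The other 2 tested calcium and touch genes were not called. CML42, a calmodulin-like protein gene, had signals of 113 and 186 at 0 h and 132 and 170 at 1 h, a difference of 0.04 (95% interval -0.61 to 0.70). AT2G41090 differed by -0.17. Both overlapped between groups. No tested gene that acts upstream of the CBF factors was called or had an unadjusted p under 0.05 in limma. SIZ1, a SUMO ligase gene, differed by 0.00 with signals of 218, 269, 245 and 239. EIN3, a transcription factor gene of ethylene signalling, differed by -0.08, AT4G16150 by -0.21 and AT1G16670 by 0.14. The 4 tested members had a median of -0.04.

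The list of cold-regulated COR genes had no call among 7 tested members, and its median of 0.63 rested on replicate 2 of 1 h. COR15A, which encodes a protein that protects chloroplast membranes, had signals of 31.6 and 19.7 at 0 h and 10.1 and 104 at 1 h. COR15B had 39.3 and 72.0 at 0 h and 48.0 and 157 at 1 h. In both the 1 h arrays stood on either side of a 0 h array, so the groups overlapped. COR27 had 41.7 and 120 at 0 h and 50.5 and 266 at 1 h, with replicate 2 high in both groups. AT4G33980 had 19.7 and 29.4 at 0 h and 36.9 and 128 at 1 h, a difference of 1.28 (adjusted p = 0.509). It was the 1 member of 7 that did not overlap, against 16% of all tested probe sets that were higher without overlap. LTI30, a dehydrin gene, had 192 and 85.9 at 0 h and 186 and 225 at 1 h, a difference of 0.63. These 2 genes had an unadjusted limma p under 0.05. COR47, another dehydrin gene, differed by -0.22 and TIL, a lipocalin gene, by -0.02. Without replicate 1 of 1 h the list median was 1.42, and without replicate 2 of 1 h it was -0.14. GI, a circadian clock gene, split by replicate number in the same way, with signals of 38.1 and 128 at 0 h and 56.4 and 127 at 1 h.

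Growth and hormone genes gave no call in limma, and of them ARR15 alone had an unadjusted p under 0.05. ARR15, a cytokinin response regulator, had signals of 22.7 and 21.6 at 0 h and 91.9 and 53.3 at 1 h, a difference of 1.38 (95% interval 0.62 to 2.13, adjusted p = 0.237). Its 1 h arrays lay above both 0 h arrays but apart from each other. ARR15 lay below the filter percentile on both 0 h arrays. It passed the filter only through its 1 h arrays and replicate 2 of 7 days, so its p draws on values that admitted it. RR16, of the same family, differed by 0.43 and overlapped. Of 5 auxin and growth genes, the expansin gene EXPA8 differed by -0.74 with signals of 248 and 554 at 0 h and 208 and 232 at 1 h. EXPA4 differed by -0.20, IAA29 by 0.08, WES1 by 0.38 and GH3.3 by 0.42, and the list median was 0.08. The ethylene gene RTE1 differed by -0.02 and the light-response factor HYH by 0.11.

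Ubiquitin ligase genes of the rapid stress response were all higher in mean, as were 7258 of the 15017 tested probe sets. Their median was 0.48, and 0 of 4 were called in limma, against 0.313% of all tested called higher. Of the 4, 1 (AT1G20823) had an unadjusted limma p under 0.05, against 3.23% of all tested that were higher. Both 1 h arrays lay above both 0 h arrays in 3 of the 4, against 16% of all tested. AT1G20823 had signals of 42.5 and 57.1 at 0 h and 94.8 and 88.6 at 1 h, a difference of 0.80 (adjusted p = 0.349). PUB24 differed by 0.54, PUB22 by 0.43 and PUB23 by 0.23. Heat shock and folding genes were close to 0, with Hsp70-2 at -0.24, AT4G28480 at -0.19 and AT5G48570 at 0.35. AT5G48570 passed the filter only through its 1 h arrays, where it was highest, so its value draws on the arrays that admitted it. Reference genes had a median of -0.05 over 6 members, with AT4G26410 at -0.27, AT2G28390 at -0.12, TUB6 (a tubulin) at -0.09, AT4G34270 at -0.02, PEX4 at -0.00 and AT4G33380 at 0.16. Root genes had a median of -0.28 over 3 members, with PYK10 at -0.28, EXPA7 at -0.52 and EXPA18 at -0.02, and ROXY1 differed by 0.08. The lists of jasmonate, abscisic acid and seed genes had no tested member.

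**Figure D4:**
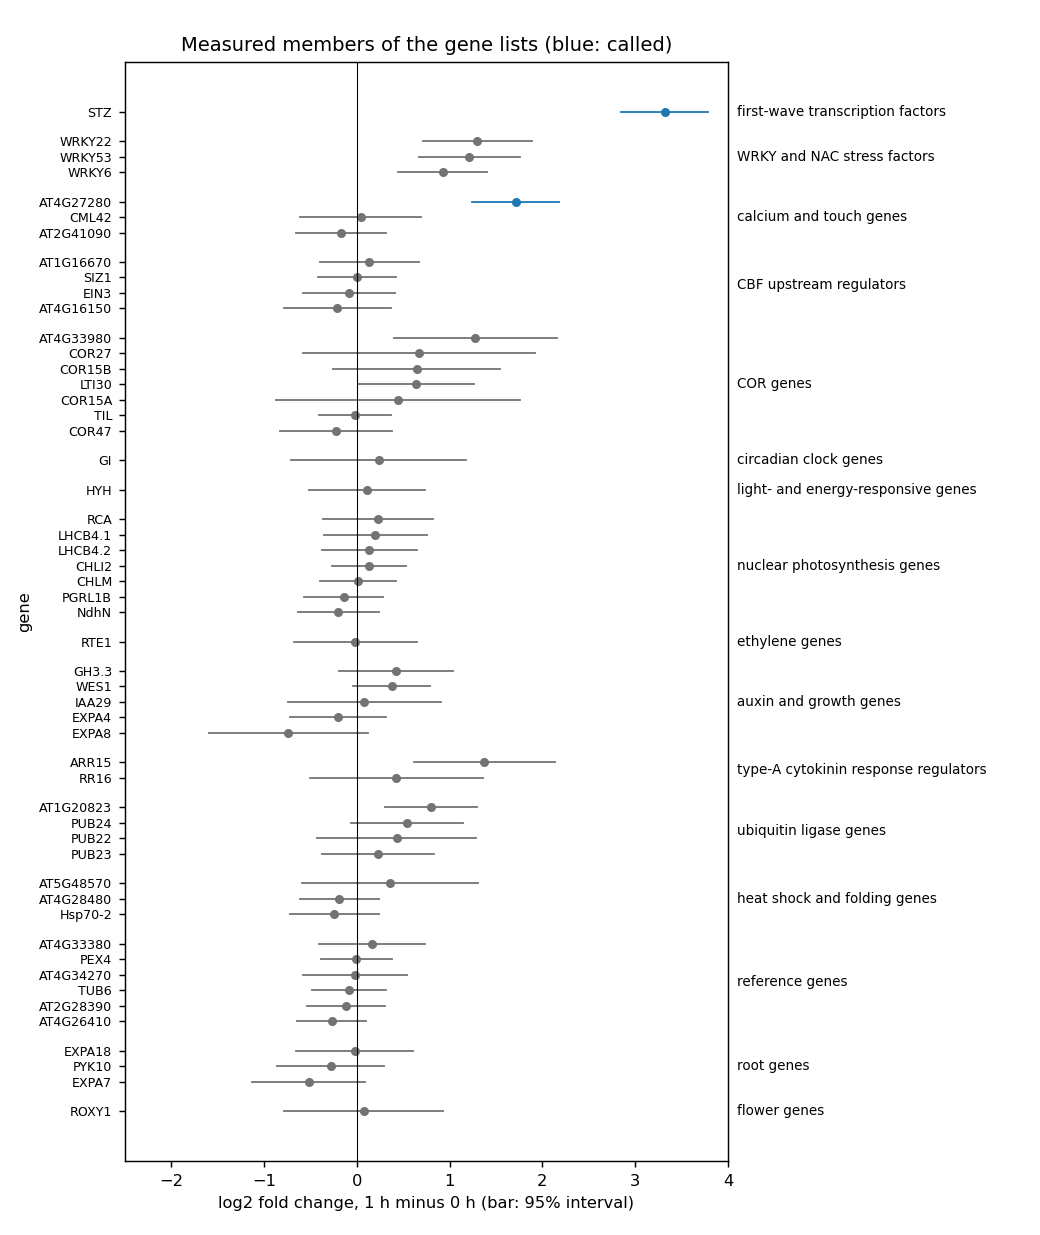
Log2 fold change from 0 h to 1 h with its 95% interval for the 52 tested members of the gene lists, grouped by list. STZ and AT4G27280 (blue) were called, the 3 WRKY genes and ARR15 lie to the right of 0 without a call, and COR15A and COR27 have the wide intervals of genes whose replicates differ.

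Families of nuclear genes that share a symbol were read as a further description of 252 genes. Of 26 families with at least 6 tested members, 8 had a median above 0, and TET8 was the 1 called gene in them. The 3 families described here were picked after their values were seen. They share members with the lists above: EXPA4, EXPA7, EXPA8 and EXPA18 in EXPA, and PUB22, PUB23 and PUB24 in PUB. Their values are therefore in part the same values read again. The expansin family EXPA, which loosens cell walls, was lower in mean in all of its 8 tested members, with a median of -0.33 and no unadjusted p under 0.05. The GSTU glutathione transferases were lower in mean in all of 7, with a median of -0.25. The PUB ubiquitin ligases stood highest, with a median of 0.33 and 6 of 8 above 0. None of these members was called in limma. Of the 8 PUB genes 1 was higher at an unadjusted limma p under 0.05, against 3.23% of all tested probe sets.

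Genes encoded in the chloroplast were higher as a group without a call. Of 68 tested chloroplast-encoded genes, 66 were higher in mean at 1 h and 36 had an unadjusted p under 0.05, all higher, against 3.23% of all tested probe sets. The median difference was 0.71, against -0.01 for all tested probe sets, and 43 were higher on both 1 h arrays than on both 0 h arrays, against 16% of all tested probe sets. The genes share a genome and the arrays, so they are not independent of one another. The 9 ndh genes of the plastid NADH dehydrogenase-like complex had a median of 0.97, with 7 at an unadjusted p under 0.05. The 33 genes of the photosynthetic complexes and Rubisco had a median of 0.66 with 19 such genes. The 20 genes of transcription and translation had a median of 0.63 with 7, and the 6 others 0.80 with 3.

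ndhA, a subunit of the NADH dehydrogenase-like complex, had signals of 417 and 467 at 0 h and 1278 and 954 at 1 h, a difference of 1.31 (95% interval 0.78 to 1.83). ndhH had 29.0 and 43.9 at 0 h and 137 and 78.9 at 1 h. In both genes each 1 h array lay above each 0 h array. The gene with the largest difference was rbcL, the large subunit of Rubisco, with signals of 87.4 and 135 at 0 h and 647 and 214 at 1 h (1.71, adjusted p = 0.210). At the other end rpl36, a ribosomal protein gene, had 545 and 196 at 0 h and 194 and 215 at 1 h, a difference of -0.66 with overlapping groups. The 7 tested nuclear photosynthesis genes had a median of 0.13, none was called or had an unadjusted p under 0.05 in limma, and all overlapped between groups. RCA differed by 0.23, the antenna genes LHCB4.1 and LHCB4.2 by 0.20 and 0.14, and the chlorophyll synthesis genes CHLI2 and CHLM by 0.13 and 0.01. PGRL1B differed by -0.14 and NdhN, a nuclear gene of the NADH dehydrogenase-like complex, by -0.20.

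The 1 h arrays differed in the chloroplast genes. The median difference from the 0 h mean was 1.14 on replicate 1 and 0.37 on replicate 2, and replicate 1 was the higher in 61 of the 68 genes. Above both 0 h arrays lay 62 genes on replicate 1 and 44 on replicate 2. The mean log2 level of the group was 8.26 and 8.27 at 0 h, 9.32 and 8.63 at 1 h, 8.82 and 8.62 at 24 h and 8.52 and 8.60 at 7 days. For actin, the 3′ over 5′ ratio of the control probe sets, which reads RNA and target integrity, was 3.84 and 2.95 at 0 h and 5.32 and 3.95 at 1 h. It was thus highest on the array with the highest chloroplast level among these 4, and ran from 2.95 to 6.53 over all 8 arrays. The same ratio for ubiquitin was 2.30 and 2.28 at 0 h and 2.85 and 2.06 at 1 h, so that replicate 1 of 1 h had the highest value of the 8 arrays, whose lowest was 1.81. For GAPDH it ran from 1.22 to 1.45. The part of these ratios in the result was not tested. Of 16 mitochondria-encoded genes with a probe set, 8 were tested. Among the tested ones ccb206 and nad9 lay below the filter percentile on both 0 h arrays. They passed the filter partly through 1 h arrays, so the count and median that follow are partly set by the filter. All 8 were higher in mean, with a median of 0.26, which was 0.57 on replicate 1 and 0.09 on replicate 2. cox1, a subunit of cytochrome oxidase, differed most among them, with signals of 37.7 and 41.0 at 0 h and 84.0 and 62.3 at 1 h (0.77, adjusted p = 0.361).

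**Figure D5:**
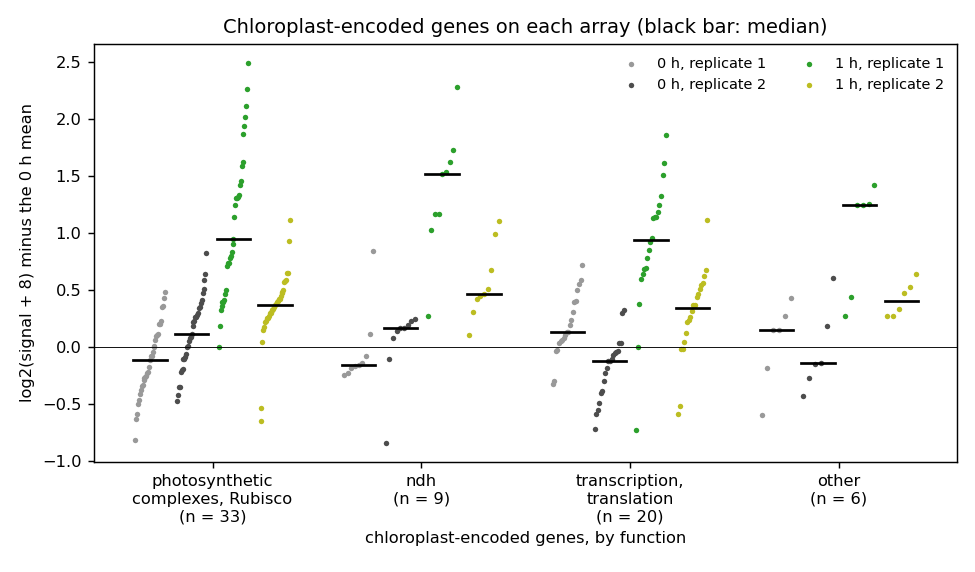
Level of each tested chloroplast-encoded gene on the 4 arrays, as log2(signal + 8) minus the gene's 0 h mean, in 4 functional groups. Points are genes and black bars medians over genes; the medians of replicate 1 of 1 h lie above those of replicate 2 in all 4 groups, and both lie above the 0 h arrays.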

How the data were processed

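RNA of whole plants was hybridised to one-colour ATH1 arrays. The authors deposited linear signal intensities from MAS5, per the submitters' processing notes. Its version and settings are not stated in those sources, and no detection calls were used. The mean of each array without its lowest and highest 2% of values was 100, which shows scaling to a common target. No further normalization was applied.

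Of 22810 probe sets, 64 controls were left out. The platform annotation pairs 13513 with 1 gene (13436 named through RefSeq gene tables of TAIR10.1, 77 by the annotation's own symbol), 503 with several and lists no gene for 8730. A probe set was tested where its signal was above the array's 40th percentile on at least 2 arrays. Changes of log2(signal + 8) were tested two-sided in limma 3.58.1 (R 4.3.3) with an intensity trend, 1 mean per group and all 8 arrays, with Benjamini-Hochberg adjustment over the 15017 tested probe sets. Prior and residual degrees of freedom were 7.67 and 4. The code was tested on simulated data. The number of arrays limits the precision.

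Samples were grouped by title. The text names every called probe set with 1 gene, the 2 largest rises and the only fall among other called probe sets, the 10 named genes with the lowest p among lower ones, the 5 nearest above the threshold and list members (all in lists under 8 tested members, otherwise the called, highest and lowest). Of several probe sets for a gene, the brightest was taken. Gene lists and comparison were chosen with earlier results of these data known. Alternatives covered scaling, pseudocount, filter, trend, arrays in the fit, a replicate block and each array left out.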

Additional observations from a re-analysis of the deposited data

Results flagged for a closer look

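Of the 19 named probe sets called at 1 h, 16 had an effect against 0 h that differed between 24 h and 1 h in the limma contrast of those times, with adjusted p from 1.97e-05 to 0.0315, and both effects share the 0 h arrays. The difference, 24 h minus 1 h in log2 units, was -2.88 for AT2G20670 and -2.28 for the unlisted 254120_at. It was -2.20 for AT1G76600, -2.10 for AT3G04640, -2.09 for AT4G27280, -1.94 for AT1G32920 and -1.93 for AT1G25400. It was -1.79 for TET8, -1.68 for AT1G19380, -1.66 for AT4G29780, -1.58 for STZ and -1.38 for AT1G25550. The smallest were -1.08 for AT3G56880, -0.89 for AT1G21050 and -0.60 for AT2G29670. The probe set that fell at 1 h, 249752_at, was higher at 24 h by 1.85. The 1 h arrays also chose these probe sets, so the differences are a description of how far each level moved back.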

How the results depend on the processing

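All 48 calls kept their sign under each of the 17 alternatives that tested them, and 13 stayed called under every one. Quantile normalization gave 50 calls, equal medians 35, pseudocounts of 1 and 32 gave 42 and 62, the 60th-percentile filter 50 and the 4 arrays alone 43. Without a filter on dim probe sets (22746 tested) there were 23 calls, 23 higher and 0 lower, and without the intensity trend 29, 29 higher and 0 lower. At an unadjusted p under 0.05 those limma fits had 1071 and 733 probe sets. The share of higher calls was 97.9%, 98.0% with quantile normalization and 97.1% with equal medians. Leaving out each array in turn gave 16 to 56 calls, 16 to 54 higher and 0 to 2 lower; the lowest were 16 without replicate 2 of 0 h, 18 without replicate 2 of 1 h and 23 without replicate 1 of 0 h. The replicate block gave 55 calls, of which 53 were higher and 2 lower, and 47 of the 48 stayed called. Deviations of same-numbered arrays from their group means correlated at 0.385 between 0 h and 1 h, 0.403 between 0 h and 24 h and 0.243 between 1 h and 24 h, but at -0.209, -0.026 and -0.166 between 7 days and 0 h, 1 h and 24 h. No label says that a number marks a shared batch, so over all 8 arrays it was not taken as a pairing; among the first 3 groups the data hint at one. ndhA passed the threshold in 5 alternatives (adjusted p = 0.0275 with quantile normalization). Of the named values without a call, 27 changed sign under some alternative, and of 22 list medians 15 moved by more than the replicate spread. The cause was not tested. Dim probe sets and 2 arrays per group limit what can be called.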
